A study of Caenorhabditis elegans with 2 samples.

Results

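Genes that drive the cell division cycle, copy DNA and build centrosomes were read out in RNA sequencing of the nematode Caenorhabditis elegans. The list holds 37 genes chosen by name. Of these, 35 had a row under their own name among the 19874 genes analysed. The kinase gene cdk-4 and the cyclin gene cya-1 had no such row, and their values under other row names are given separately. Both samples came from 1 strain with 2 mutations. The first, daf-2(e1370), lies in the gene of the insulin/IGF-like receptor and is known as a temperature-sensitive loss of part of its function. The second, daf-12(m20), lies in a gene for a nuclear receptor of steroid hormones. The worms were grown at 20 °C on a diet of E. coli OP50 as cultures of mixed stages, and total RNA of whole animals was taken. The labels do not say whether replicates 1 and 2 were separate cultures, so the spread between them may be technical. No other strain was analysed here, so no level below shows an effect of either mutation.

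Cells divide in the embryo, in larval blast lineages and in the germ line of this animal, while the somatic cells of the adult no longer divide. Cyclin-dependent kinases (CDKs) are switched on by cyclins and held back by CDK inhibitors, and the Rb and E2F proteins control the genes of S phase. Replication origins are licensed by loading the MCM helicase, chromosomes are then attached to the spindle through kinetochores, and a pair of centrioles surrounded by pericentriolar material organises the spindle poles. Oocytes also store RNA of many of these genes for the first embryonic divisions.

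Levels are given as RPKM, read counts scaled by gene length and by sequencing depth, so that genes of different length can be set side by side. The steps between low values corresponded to a depth near 10500000 reads for replicate 1 and near 14700000 for replicate 2. At these depths 3 reads in 1 kb of coding sequence equal 0.285 and 0.205 RPKM in replicates 1 and 2, and the listed genes had from 50 to 2298 reads in replicate 1 and from 65 to 3148 in replicate 2. Markers of several stages were found together in the cultures. The 3 yolk genes lay between 2348 and 3153 RPKM in every value. Median levels were 126 RPKM for 5 genes of oocytes and the eggshell and 52.1 RPKM for 7 of the germ line. They were 59.5 RPKM for 5 of sperm and 25.9 RPKM for 5 of molting larvae. The sperm markers ran from spe-9, at 0.48 and 1 RPKM in replicates 1 and 2, to msp-19, at 154 and 201 RPKM. msp-19 and msp-3 belong to a family of near copies, so their split of reads is uncertain. The 7 embryo markers had a median of 0.27 RPKM. The lowest of them, the endoderm factor gene end-1, was listed at 0 in replicate 1 and at 0.10 RPKM in replicate 2. The highest, elt-7, was at 10.65 and 13.95 RPKM in replicates 1 and 2. It is a GATA factor gene of the gut that is not limited to the embryo, so its level does not mark embryos. The next, pes-10, was at 1.94 and 1.73 RPKM. In such whole-animal RNA, fewer dividing cells and less RNA per dividing cell cannot be told apart.

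The listed genes were expressed well above the typical gene of the table. Their median was 33.7 RPKM (32.1 in replicate 1 and 34.5 in replicate 2), beside a median of 6.17 RPKM over all genes. All 35 had a mean of at least 1 RPKM, as did 72% of all genes. A mean of at least 10 RPKM was reached by 32 of the 35, or 91.4%, beside 42% of all genes, and a mean of at least 100 RPKM by 4, or 11.4%, beside 7.63% of all genes. These 4 were the sliding clamp gene pcn-1, the B-type cyclin genes cyb-3 and cyb-1, and the mitotic kinase gene cdk-1, and they held 37.1% of the summed RPKM of the list in replicate 1 and 38.1% in replicate 2. Between 30 and 100 RPKM lay 15 genes, and between 10 and 30 RPKM another 13. Only sas-4, dpl-1 and cyd-1 had a mean under 10 RPKM. The whole list made up 0.167% and 0.158% of the RPKM summed over all genes in replicates 1 and 2.

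**Figure D1:**
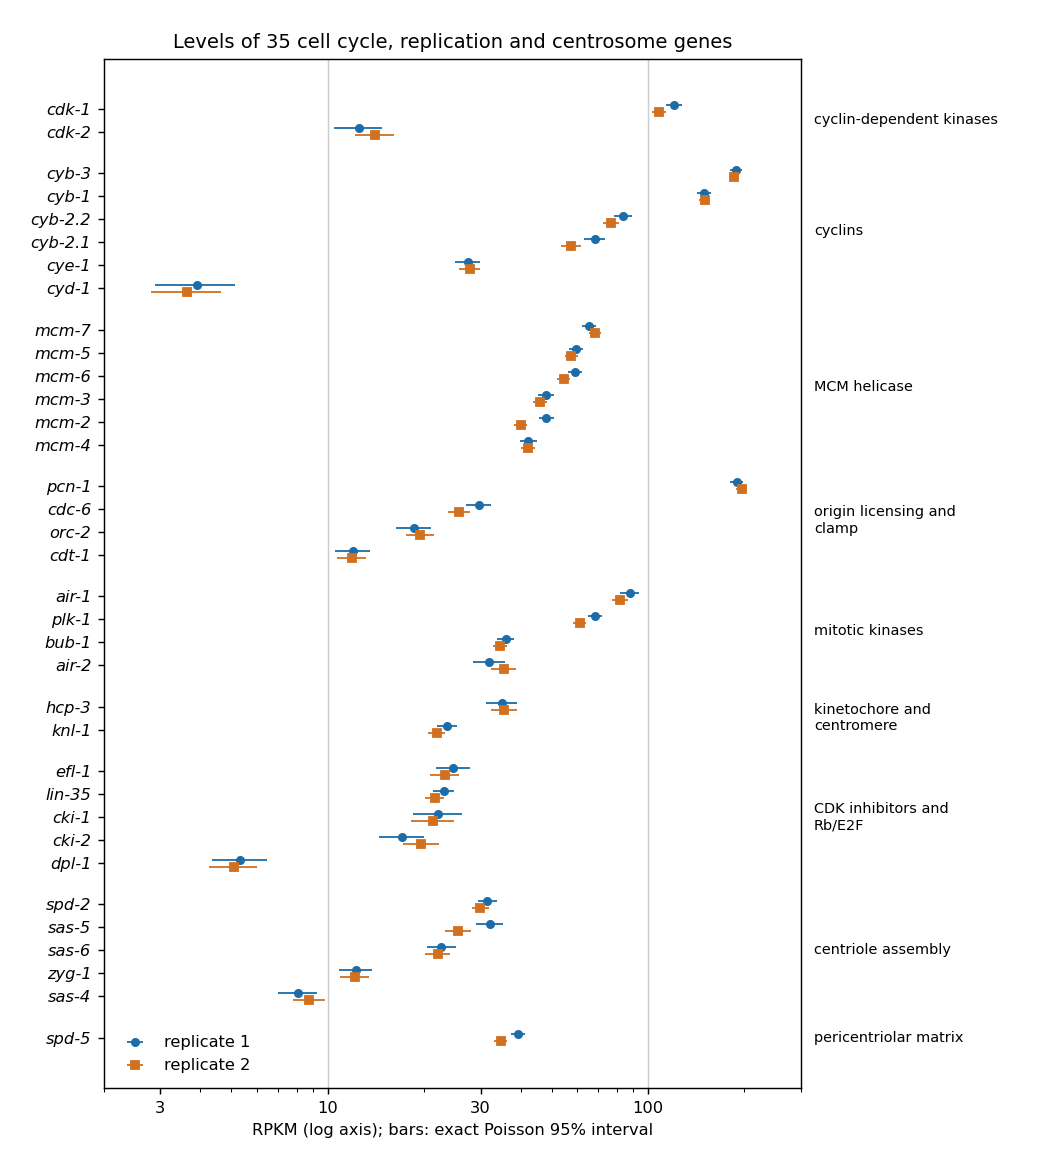
RPKM of each of the 35 genes in replicate 1 (circles) and replicate 2 (squares) on a log axis, grouped by role, with bars for the exact Poisson 95% interval of the reads. The B-type cyclins, cdk-1 and pcn-1 stand at the high end, the 6 MCM genes form a narrow block between 40.0 and 68.3 RPKM, and cyd-1 stands lowest, at 3.89 and 3.64 RPKM.

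Among the CDK genes, the mitotic kinase was far above the S phase kinase. cdk-1, the main mitotic CDK, was at 120.4 and 108 RPKM in replicates 1 and 2, and lies on chromosome III of the WBcel235 assembly. cdk-2, the kinase that pairs with cyclin E, was at 12.5 and 14.1 RPKM. The level of cdk-1 was 9.63 times that of cdk-2 in replicate 1 and 7.71 times in replicate 2, so the gap between the genes was larger than the spread between replicates. cdk-4, the partner of cyclin D in G1, is a gene of the X chromosome, and the table lists it only as a pair of rows that each name a stretch of it by coordinates. The row that spans 2854 bp was at 9.93 and 9.02 RPKM in replicates 1 and 2. The row that spans 1704 bp was at 0.39 and 1.17 RPKM, a 3-fold difference between replicates. How the authors divided reads between these overlapping rows is not given in the sources used here, so no level of the whole gene was formed.

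The cyclin genes showed the widest range of any role, with mitotic cyclins at the top and the G1 cyclin at the bottom. cyb-3, which encodes the B3-type cyclin, was at 188 and 186 RPKM in replicates 1 and 2. cyb-1, a B-type cyclin gene, was at 149.6 and 150.3 RPKM. Both genes were steady between replicates, with SDs of 1.92 and 0.55 RPKM (n = 2). Their close relatives cyb-2.2 and cyb-2.1 were lower, at 83.5 and 76.7 RPKM for cyb-2.2 and at 68.2 and 57.5 RPKM for cyb-2.1. These 2 genes are near copies of each other, so reads that fit both could be divided between them in a way the table does not show, and their order is uncertain. Together the 4 B-type genes summed to 489.6 and 470.1 RPKM in replicates 1 and 2. That was 4.07 and 4.34 times the level of cdk-1, and 94.0% and 93.7% of the RPKM of the 6 cyclin genes with a row.

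The cyclins that act before mitosis were scarcer. cye-1, the cyclin E gene of the entry into S phase, was at 27.4 and 27.7 RPKM in replicates 1 and 2, or 2.19 and 1.97 times its partner cdk-2. cyd-1, the only cyclin D gene of the list, was at 3.89 and 3.64 RPKM, the lowest level of all 35 genes. About 50 and 65 reads stood behind those values, and the exact Poisson 95% intervals were 2.89 to 5.13 RPKM and 2.81 to 4.64 RPKM. The level of cyb-3 was thus 48.4 times that of cyd-1 in replicate 1 and 51.0 times in replicate 2. cya-1, a cyclin A gene, had no row under its symbol. Its sequence name ZK507.6 was in the table at 20.8 and 17.5 RPKM, between cye-1 and cyd-1.

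The 6 genes of the MCM helicase, the ring of different subunits that unwinds DNA at origins, were at similar levels. mcm-7 was highest, at 65.3 and 68.3 RPKM in replicates 1 and 2. mcm-4 was lowest by its mean, at 42.3 and 42.2 RPKM. The fold from the highest to the lowest mean was 1.58. Between these lay mcm-5 at 59.5 and 57.6 RPKM, mcm-6 at 59.0 and 54.5 RPKM, mcm-3 at 48.0 and 46.0 RPKM, and mcm-2 at 48.1 and 40.0 RPKM. The genes fell into an upper and a lower set of 3. mcm-7, mcm-5 and mcm-6 stayed at 54.5 RPKM or more in both replicates, and mcm-3, mcm-2 and mcm-4 at 48.1 RPKM or less. Within the lower set mcm-3 was above mcm-4 in both replicates, while the range of mcm-2 took in that of mcm-4 and overlapped that of mcm-3, so mcm-2 could not be placed.

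The loading factors that bring the helicase to origins were below it, and the clamp was above it. pcn-1, which encodes the PCNA clamp that holds DNA polymerase on its template, was at 189 and 196 RPKM in replicates 1 and 2. It was the highest gene of the list, at rank 825 of 19874, and lies on chromosome IV from 4047937 to 4049448. Its level was 2.90 and 2.87 times that of mcm-7. cdc-6, an ATPase gene of helicase loading, was at 29.6 and 25.7 RPKM. orc-2, a subunit gene of the origin recognition complex, was at 18.6 and 19.4 RPKM, and cdt-1, the gene of the other loading factor, was at 11.96 and 11.89 RPKM. The level of cdc-6 was 2.48 and 2.16 times that of cdt-1, and all 3 loading genes were below every MCM gene in both replicates.

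The mitotic kinase genes all had a mean above 30 RPKM, with Aurora A above Aurora B. air-1, the Aurora A gene of spindle poles, was at 87.6 and 82.0 RPKM in replicates 1 and 2. air-2, the Aurora B gene of the chromosomal passenger complex, was at 31.9 and 35.5 RPKM. The fold of air-1 over air-2 was 2.74 in replicate 1 and 2.31 in replicate 2. plk-1, the Polo-like kinase gene of mitotic entry and centrosome growth, was at 68.4 and 61.1 RPKM. bub-1, a kinase gene of the spindle checkpoint, was at 36.0 and 34.5 RPKM, with a replicate range that overlapped that of air-2. At the chromosome, hcp-3, which encodes the centromeric histone CENP-A, was at 34.9 and 35.4 RPKM. knl-1, the scaffold gene of the outer kinetochore, was lower at 23.5 and 21.9 RPKM, and hcp-3 was 1.48 and 1.62 times as high.

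The CDK inhibitor genes and the genes of the Rb and E2F module were all below every MCM gene. cki-1, the CDK inhibitor gene known for arresting cells in G1, was at 22.1 and 21.3 RPKM in replicates 1 and 2. cki-2, its relative, was at 17.03 and 19.60 RPKM. The genes lie 4393 bp apart on chromosome II, cki-1 from 7811240 to 7812105 and cki-2 from 7816499 to 7820281. Although their replicate values did not overlap, their counting intervals did, since about 129 and 173 reads for cki-1 and 150 and 240 reads for cki-2 gave intervals that reach down to 18.2 RPKM for cki-1 and up to 22.2 RPKM for cki-2. lin-35, the only Rb family gene of the worm, was at 23.0 and 21.6 RPKM. efl-1, an E2F gene, was at 24.6 and 23.2 RPKM, close to lin-35 but above it in both replicates. dpl-1 encodes the DP protein that binds DNA together with E2F, and it was at 5.33 and 5.09 RPKM. The level of efl-1 was thus 4.62 and 4.55 times that of its partner gene dpl-1, a gap far larger than the spread of either.

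Centriole assembly genes covered a 3.65-fold range of means. spd-2, which acts at the first step of centriole assembly and in recruiting pericentriolar material, was at 31.5 and 29.9 RPKM in replicates 1 and 2. zyg-1, the kinase gene that starts duplication, was at 12.2 and 12.1 RPKM. Downstream of it, sas-5 was at 32.1 and 25.5 RPKM and sas-6, the gene of the central tube protein, at 22.6 and 22.0 RPKM. sas-4, needed to add microtubules to the new centriole, was lowest at 8.05 and 8.75 RPKM. The protein products of sas-5 and sas-6 act as a complex, and the level of sas-5 was 1.42 times that of sas-6 in replicate 1 and 1.16 times in replicate 2. spd-5, the scaffold gene of the pericentriolar matrix, was at 39.3 and 34.7 RPKM, above every centriole gene in both replicates. It was 3.22 and 2.86 times as high as zyg-1.

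**Figure D2:**
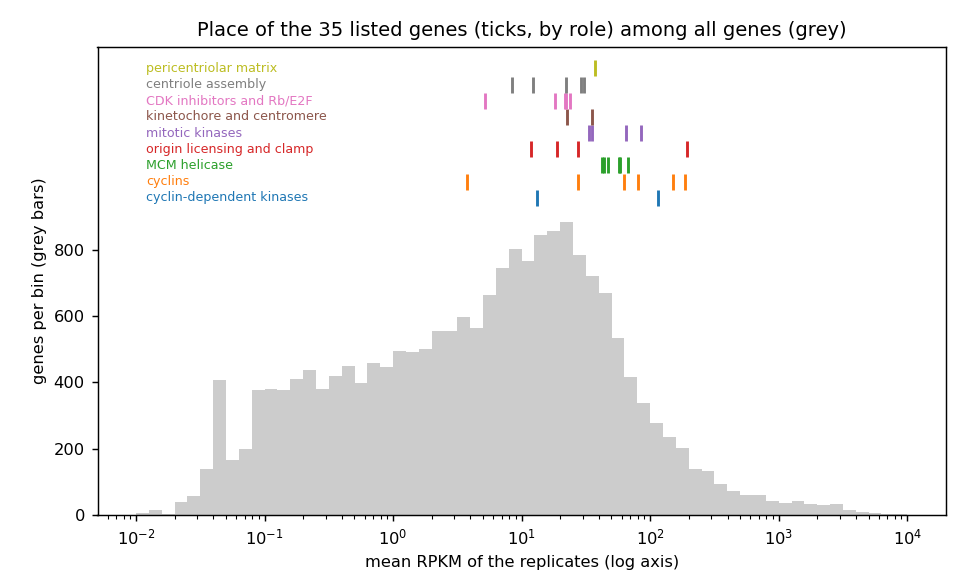
Histogram of the mean RPKM of all 19874 genes (grey bars, log axis), with a coloured tick for each of the 35 listed genes in a line for its role. The ticks run from cyd-1 at 3.77 RPKM to pcn-1 at 193 RPKM, and 32 of them stand at 10 RPKM or more.

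In the order of all 35 means, the replicate ranges of the highest 4 genes and of the lowest 6 did not overlap those of their neighbours. The lowest 6 were cdk-2, zyg-1, cdt-1, sas-4, dpl-1 and cyd-1. Over the whole order, the replicate ranges overlapped in 18 of 34 neighbouring pairs. Among the runs in which each gene overlapped the next were mcm-7, plk-1, cyb-2.1, mcm-5 and mcm-6, then spd-5, bub-1, hcp-3 and air-2, then spd-2, sas-5, cdc-6 and cye-1, and finally efl-1, knl-1, sas-6, lin-35 and cki-1. A range over 2 replicates can be narrower than counting error allows. pcn-1 and cyb-3 did not overlap by their replicates, but in replicate 1 their Poisson intervals were 179.8 to 199 RPKM and 181 to 196 RPKM. Likewise, the replicate 1 intervals were 10.5 to 14.8 RPKM for cdk-2, 10.8 to 13.7 RPKM for zyg-1 and 10.5 to 13.5 RPKM for cdt-1. Those of dpl-1 and cyd-1, 4.34 to 6.48 RPKM and 2.89 to 5.13 RPKM, overlapped too. The order within these groups is therefore uncertain. Across the 35 genes the values of the replicates had a Pearson's r of 0.996 on the log2 scale and a Spearman's rho of 0.990, a description over genes that share both libraries. Level was almost unrelated to coding length, which ran from 555 bp in cki-1 to 3597 bp in spd-5 (Spearman's rho of -0.12 over 35 genes).

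Most listed genes had slightly less RNA in replicate 2 than in replicate 1. Of the 35, 25 were lower in replicate 2, or 71.4%, beside 55.5% of the 14313 genes with a mean of at least 1 RPKM. The median log2 ratio of replicate 2 to replicate 1, with 1 added to each RPKM, was -0.06 for the listed genes and -0.02 for all genes with a mean of at least 1 RPKM. None of the 35 differed by more than 1.5-fold, beside 3.58% of all such genes, a share that is not matched for level. The SD of the log2 ratio was 0.344 over all genes at 1 to 10 RPKM. It was 0.185 at 10 to 30 RPKM and 0.145 at 30 to 100 RPKM. Since 32 of the 35 genes had a mean of at least 10 RPKM, the count of 0 is not read as a trait of the list. The ratios of RPKM ran from 0.795 for sas-5 to 1.15 for cki-2.

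For 8 genes the exact 95% interval of the ratio, which covers counting error only, left out 1. All 8 were lower in replicate 2. They were sas-5 (ratio 0.795, interval 0.694 to 0.910), mcm-2 (0.832, 0.773 to 0.896), cyb-2.1 (0.843, 0.761 to 0.935), cdc-6 (0.868, 0.768 to 0.980), spd-5 (0.882, 0.823 to 0.945), plk-1 (0.894, 0.833 to 0.959), cdk-1 (0.900, 0.835 to 0.9697) and mcm-6 (0.924, 0.863 to 0.989). Among the 13560 genes with a mean of at least 1 RPKM and a coding length, the interval left out 1 in 17.4% and lay below 1 in 10.6%. A further background was the 9629 genes whose reads over both replicates were in the range of the listed genes, from 115 to 5446. Of these, the interval left out 1 in 17.7% and lay below 1 in 11.8%. Of the 35 listed genes, the interval left out 1 in 22.9%, all of them below 1. The difference from these shares was not tested. Of the 6 MCM genes 5 were lower in replicate 2, with a median log2 ratio of -0.05. The exception was mcm-7, with a ratio of 1.05 and an interval from 0.980 to 1.12. That interval overlapped the one of mcm-6 but lay above the one of mcm-2.

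Markers of tissues and stages were compared between the replicates in the same way. Beside their counts, 55.5% of the 14313 genes with a mean of at least 1 RPKM were lower in replicate 2. No marker list was tested against that share. Of the 7 germ line markers, 5 were lower in replicate 2, and their summed level was 460.2 and 429 RPKM in replicates 1 and 2. Of the 5 oocyte and eggshell markers, 4 were lower in replicate 2, with sums of 1142 and 1148.5 RPKM. The exception was perm-2, the highest of them, at 697.8 and 738 RPKM. All 3 yolk genes were lower in replicate 2, and 3 of the 4 sperm markers with a mean of at least 1 RPKM were higher. None of the markers of these 4 lists was at 0 in either replicate. Higher in replicate 2 were 4 of the 5 markers of molting larvae (sums of 148 and 153 RPKM), 2 of the 3 of neurons (193 and 216 RPKM) and 2 of the 3 of the intestine (2474 and 2774 RPKM). Most of the intestinal sums came from 1 gene, the protease gene asp-1, at 2387 and 2688 RPKM. It had a ratio of 1.13, with an interval from 1.11 to 1.14. The intestinal gene elt-2 was at 21.4 and 23.5 RPKM, and ges-1 was lower in replicate 2, at 65.95 and 62.8 RPKM. Of the 3 body wall muscle markers 2 were lower. Of the 3 embryo markers with a mean of at least 1 RPKM 2 were higher, tbx-37 and the gut gene elt-7. Whether these differences play a part in those of the listed genes was not tested.

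**Figure D3:**
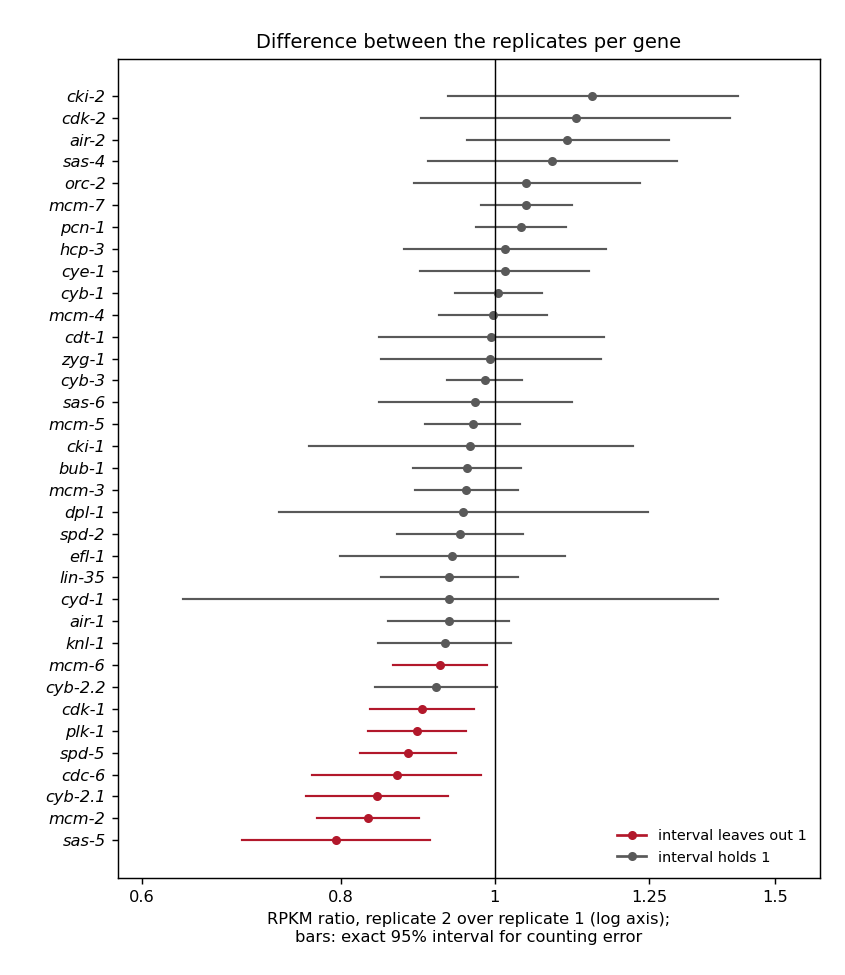
Ratio of RPKM in replicate 2 over replicate 1 for each of the 35 genes on a log axis, with bars for the exact 95% interval of counting error. Red marks the 8 genes whose interval leaves out 1, all below it, and the other intervals hold 1.

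Other genes of the division machinery, were taken from 8 lists of 126 genes. Their means ran from 0.32 to 242 RPKM, a wider range than the 3.77 to 193 RPKM of the listed genes. Of the 126, 112 had a row under their own name. A mean of at least 10 RPKM was reached by 103 of the 112, beside 42% of all genes, and their median was 24.1 RPKM. By genes with a row under their own name, the highest list was replication, with a median of 34.5 RPKM over 20 genes. Its other genes had rows only under sequence names, at means from 10.98 RPKM (mcm-10) to 35.4 RPKM (psf-2). They were left out of the median, so its place above the kinetochore list, at 32.3 RPKM, is uncertain. rnr-2, the small subunit gene of ribonucleotide reductase, was at 242 ± 1.99 RPKM (SD, n = 2, as for all values of these lists), above every listed gene. rpa-2, a gene of the protein that covers single-stranded DNA, was at 123 ± 6.51 RPKM and rfc-4, a clamp loader gene, at 109 ± 6.44 RPKM. The lowest of the 20 replication genes was orc-3 at 12.7 ± 1.38 RPKM, above mcm-10.

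Kinetochore and checkpoint genes had a median of 32.3 RPKM over 24 genes. The KNL-1 binding protein genes kbp-3, kbp-4 and kbp-5 led it, at 136 ± 0.62, 92.8 ± 1.95 and 72.2 ± 5.78 RPKM, and spdl-1, which brings dynein to kinetochores, was lowest at 14.6 ± 1.12 RPKM. The 15 regulator genes of the cycle had a median of 24.3 RPKM. Their highest member was cks-1, the small CDK-binding subunit, at 128.5 ± 12.7 RPKM, close to cdk-1, followed by cdk-7, the CDK-activating kinase gene, at 51.6 ± 1.40 RPKM and fzy-1, the Cdc20 gene, at 43.4 ± 0.96 RPKM. wee-1.1, a Wee1-type kinase gene, was at 0.40 and 0.24 RPKM in replicates 1 and 2, from about 6 and 5 reads. Its relative wee-1.3, chosen after its values were seen, was at 30.1 ± 0.93 RPKM.

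Of 13 genes around the anaphase promoting complex, the ubiquitin ligase that ends mitosis, the median was 19.02 RPKM. The securin gene ify-1 was highest at 111 ± 6.06 RPKM, followed by apc-11 at 89.0 ± 7.81 and emb-1 at 69.7 ± 1.252 RPKM, and gfi-3 was lowest at 4.92 ± 0.18 RPKM. Condensin and cohesin genes had the lowest median of the 8 lists, 16.5 RPKM over 12 genes. Their means covered a 3.92-fold range, from coh-1 at 5.65 ± 0.74 RPKM to scc-3 at 22.1 ± 0.52 RPKM. Below scc-3 came mau-2 at 20.0 ± 1.94 RPKM and kle-2 at 19.5 ± 0.88 RPKM. Spindle and cytokinesis genes had a median of 24.9 RPKM over 12 genes, led by cyk-4 at 38.4 ± 1.57, the nonmuscle myosin gene nmy-2 at 35.3 ± 4.25 and lin-5 at 32.5 ± 0.46 RPKM. gpr-1, lowest at 5.92 ± 1.15 RPKM, and gpr-2 are near copies, so their split of reads is uncertain.

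The 8 further centrosome genes with a row under their own name had a median of 22.0 RPKM, beside 22.3 RPKM for the 5 centriole genes. That median leaves out genes listed only under sequence names. These were sas-7, sas-1 and pcmd-1, at means of 5.95, 7.45 and 8.28 RPKM, and mzt-1 at 77.9 RPKM. The 8 genes were led by tac-1, a partner of the microtubule polymerase ZYG-9, at 44.3 ± 5.97 RPKM. The gamma-tubulin gene tbg-1 followed at 38.9 ± 0.57 RPKM and gip-2 at 35.3 ± 2.88 RPKM. Of the 8, zyg-8 at 11.4 ± 0.18 RPKM and gip-1 at 11.4 ± 0.56 RPKM were tied as lowest. The 8 further genes listed around DREAM, the complex of LIN-35 and EFL-1 that binds promoters, had a median of 19.9 RPKM. Of these, efl-2, efl-3 and lin-36 were not counted as subunit genes of the complex below. lin-53, which encodes a histone-binding protein shared with other chromatin complexes, was highest at 96.0 ± 1.12 RPKM, followed by lin-52 at 38.4 ± 3.03 and lin-37 at 37.3 ± 1.499 RPKM. efl-2, another E2F gene, was lowest at 10.5 ± 0.46 RPKM.

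**Figure D4:**
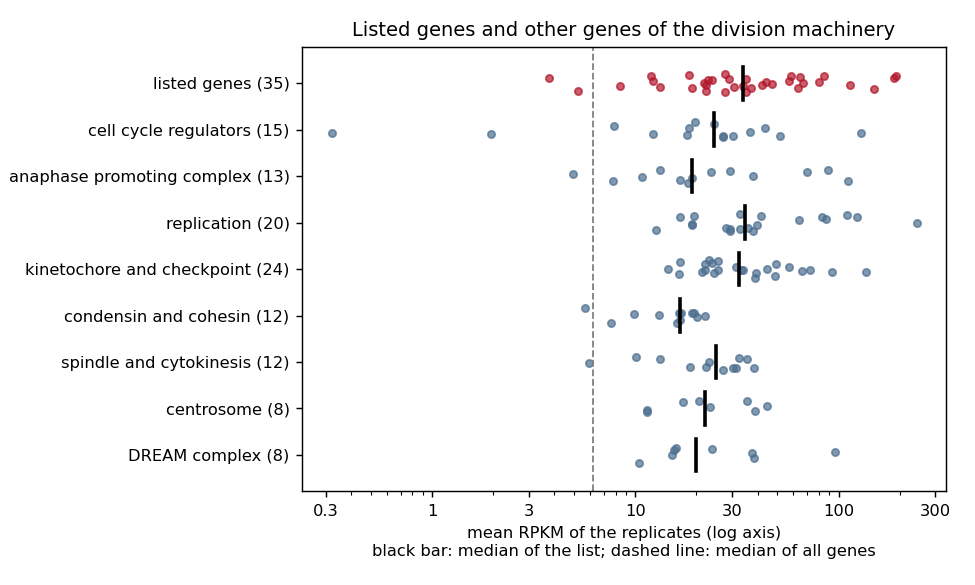
Mean RPKM of each gene (points, log axis) for the 35 listed genes (red) and for 8 lists of other division genes (blue), with the number of genes in brackets, the list median as a black bar and the median of all genes as a dashed line. Genes listed only under a sequence name are left out. Every list median shown lies above the 6.17 RPKM of all genes, from 16.5 RPKM for condensin and cohesin to 34.5 RPKM for replication.

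Genes of a complex or pathway were at even levels in some groups and not in others. The spread of the 6 MCM genes, 1.58-fold, was near that of 5 spindle checkpoint genes, bub-1, bub-3, san-1, mdf-1 and mdf-2. Those 5 covered 1.40-fold around a median of 39.1 RPKM, but they were grouped by pathway and are not the subunits of 1 complex. The 5 genes of the origin recognition complex, orc-1 to orc-5, covered 2.31-fold, with orc-2 in the middle. In the chromosomal passenger complex the range was 2.49-fold, from icp-1 at 23.0 RPKM to bir-1 at 57.2 RPKM, with air-2 between them. Kinetochore genes of the KNL-1, MIS-12 and NDC-80 group covered 5.996-fold over 8 genes, where knl-1 was lowest and kbp-3 highest. The 8 genes of Rb, E2F, DP and the proteins bound to them covered 18.4-fold, from dpl-1 to lin-53.

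The listed genes with a row lie on the autosomes. Of the 35, 11 are on chromosome I, 7 each on II and III, 4 on IV and 6 on V, and none is on X, which holds 13.9% of the genes with a known chromosome and 11.5% of those with a mean of at least 10 RPKM. cdk-4, which had no row under its own name, is on X. In the 8 wider lists 2 of 111 genes were on X, gfi-3 and coh-1, which were also the lowest genes of their lists.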

How the data were processed

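Total RNA of 2 samples was made into libraries with the Illumina TrueSeq RNA kit, per the labels' protocols, and CASAVA 1.8.2 appears among the submitters' processing notes. How reads were aligned and counted, with or without strand, and on which build, is not given in the sources used here, so reads of overlapping genes may be mixed. RPKM per gene and replicate stood in the single table the authors deposited, per the file headers. It held 19990 rows. Commas used as digit separators were removed from 205 and 208 values, and 104 rows naming part of a gene and 12 rows sharing a name were left out. RPKM holds no totals, so abundant genes can shift all others, and no count model was used.

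The WBcel235 annotation held 16043 of the names as symbols and 1865 as sequence names, but not the other 1966, and gave chromosome, position and coding length. Depth was estimated as the library size at which RPKM times coding length gave whole reads: with a tolerance of 0.1 read, 87.9% of the 4181 low values (at most 20 reads) of replicate 1 were whole, and 88.6% of the 3223 of replicate 2, against 20% by chance. Read numbers are such estimates, and intervals (exact Poisson, or Clopper-Pearson for ratios, at 95%) cover counting error only.

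There is 1 group, so no test between groups and no p-value was calculated. The log2 ratio used a pseudocount of 1, which understates differences of low genes. The members and lists were chosen with earlier results of these data known. All 35 members are named. Of each wider list the 3 highest genes and the lowest are named, among those with a row under their own name. Data were simulated for the comparison of replicates, with 12474 genes and depths of 9000000 and 16000000 reads. Depths were recovered as 9000789 and 16000377, and 96.7% of 12093 ratio intervals held the true ratio. The simulated reads held counting error only, so this checks the calculation and not other variation between replicates. In the simulation the interval left out 1 in 3.27% of unchanged genes, beside 17.4% of genes in the real data. Calculations ran in Python 3.11.15 with scipy 1.17.1, pandas 2.3.3 and numpy 2.4.6, and plots were drawn with matplotlib 3.10.9.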

Additional observations from a re-analysis of the deposited data

How the results depend on the processing

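The 5 summary results (median level, genes at 10 RPKM or more, median replicate ratio, genes beyond 1.5-fold, range of the MCM genes) were recomputed under 28 alternatives, of which 19 left the value equal, within the spread between replicates or, for counts, within 1.5 times. The median level was 30.7 RPKM, against 33.7 RPKM, without the near copies cyb-2.1 and cyb-2.2, an alternative chosen after seeing the data, as were those that add cya-1 under its sequence name, require 500 reads or rescale the replicate ratio to equal sums. The count of genes at 10 RPKM or more was 32, and it was 34 at a limit of 5 RPKM and 27 at 20 RPKM. With 35 genes this count could not rise by 1.5 times, so the rule for counts was a loose one here. The fold range of the MCM genes was 1.54 to 1.71 when 1 replicate was left out. The median log2 ratio is 1 value with no replicate spread to judge it by. It was -0.0558 as reported and without a filter, -0.0584 and -0.0577 with pseudocounts of 0.1 and 0.5, and -0.0564 with cya-1. It was -0.0322 when centred on all genes, -0.0285 when quantile normalized, -0.0799 after rescaling and -0.0905 for genes with 500 reads or more. The count beyond 1.5-fold was 0, and also 0 with a pseudocount of 0.1, without a filter and at 2-fold. At the lower limit tried it was 0 only because 1 was added to each RPKM, since the plain ratio of sas-5, 0.795, passes that limit. No paired analysis was possible because there is only 1 group. Depth limits cyd-1 and dpl-1 most, whose ratio intervals run from 0.637 to 1.38 and from 0.732 to 1.248.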

Other observations

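Of the 14 genes of the wider lists with no row under their own name, 11 had a row under their sequence name, 8 of them at a mean of at least 10 RPKM. Replication genes among them were psf-2 at 38.3 and 32.6 RPKM in replicates 1 and 2, psf-3 at 32.4 and 31.7 RPKM, and mcm-10 at 11.7 and 10.3 RPKM. The centriole genes sas-7, at 6.99 and 4.91 RPKM, and sas-1, at 7.81 and 7.09 RPKM, were close to sas-4, and pcmd-1, a tether gene of the pericentriolar matrix, was at 7.62 and 8.94 RPKM. mzt-1, whose product binds the gamma-tubulin complex, was higher at 79.5 and 76.3 RPKM. These rows were sought after the values of the listed genes were seen.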
